A study of Mus musculus with 24 samples.

Results

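The Hoxb cluster of mouse chromosome 11 was examined in CUT&RUN peak lists for 2 histone marks, H3K4me2 and H3K4me1, in Prdm16 KO and wild-type cells. The members were the 10 listed Hoxb genes, Hoxb1 to Hoxb9 and Hoxb13, of 21883 protein-coding genes in the RefSeq table and of 39 genes in the 4 Hox clusters. They were selected on earlier results from these same peak lists, in which several Hoxb genes had peaks in the libraries of 1 genotype only. Presence, absence and extent of peaks at the members are therefore given as a description with no test.

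PRDM16 is a zinc finger transcription regulator with a PR domain. CUT&RUN cuts chromatin beside an antibody and sequences the released fragments. The study used mouse embryonic stem (ES) cells and embryoid bodies (EB), which are aggregates of differentiating ES cells, at day 6. The groups used here were Prdm16 KO EB, wild-type (WT) EB, Prdm16 KO ES cells and WT ES cells, all of C57BL/6 background, with 2 libraries of each for each mark. No other treatment is named. ES cells were grown on Matrigel with serum, serum replacement and LIF, and EB with serum. The sources used here do not give how the Prdm16 allele was made, the number of clones, or whether a group's libraries are separate cultures. Each SD is thus the spread of 2 libraries and may be technical. Peak lists do not show the deletion itself, so the KO label was not checked. With 2 libraries against 2, the smallest two-sided exact permutation p is 0.333.

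Hox genes encode homeodomain transcription factors that give cells their position along the head-to-tail axis. In the Hoxb cluster the genes lie in the order of their domains, from Hoxb1, active early and in the hindbrain, to Hoxb9 and the distant Hoxb13, active late and in the tail. In ES cells the Hox clusters are known to be held silent by Polycomb proteins while their promoters carry H3K4 methylation, and retinoic acid, WNT and CDX signals open them from the Hoxb1 side. H3K4me2 marks promoters and enhancers, and H3K4me1 mostly enhancers.

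Coordinates are those of the peak lists (mm10), which RefSeq GRCm38.p6 shares. The cluster was taken as chromosome 11 from 96191816 to 96370754, which is 179 kb and includes 2500 bp beyond its outer genes. Hoxb13 (96194316 to 96196610) stands 74719 bp apart from Hoxb9 (96271330 to 96276595). The others follow closely: Hoxb8 (96279401 to 96285325), Hoxb7 (96285604 to 96290163), Hoxb6 (96292814 to 96301569) and Hoxb5 (96303512 to 96306121). Hoxb3 has a span of 40830 bp (96307101 to 96347930) that contains Hoxb4 (96318267 to 96321638). Hoxb2 (96351632 to 96354020) and Hoxb1 (96365746 to 96368254) end the row. A gene counted as marked where at least 1 bp of a peak lay within 2500 bp of either gene end. Exons, introns and UTRs were not resolved, and neighbours can be marked by the same peak.

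Promoter sequences of the cluster are shown first. Of the 10 members, 3 had a promoter in the RefSeq table (build GRCm38.p6). All 3 are on the plus strand, and the 250 bases before the start are printed 5′ to 3′. Hoxb4 is shown because its promoter was under an H3K4me2 peak in both WT and in neither KO library of ES cells. Hoxb1, whose peak was the most often called, and Hoxb8, at a stretch with no H3K4me2 peak in any list, were added after their values were seen. Capitals mark matches, on either strand, to the PBX-HOX motif TGATNNAT and the CDX motif TTTATG.
Hoxb4 promoter, chr11:96318017-96318266: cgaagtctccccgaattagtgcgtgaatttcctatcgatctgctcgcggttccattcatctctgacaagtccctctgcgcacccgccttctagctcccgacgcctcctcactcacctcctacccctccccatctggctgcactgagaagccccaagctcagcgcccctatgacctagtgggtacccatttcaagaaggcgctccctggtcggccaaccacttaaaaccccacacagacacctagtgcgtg
Hoxb1 promoter, chr11:96365508-96365757: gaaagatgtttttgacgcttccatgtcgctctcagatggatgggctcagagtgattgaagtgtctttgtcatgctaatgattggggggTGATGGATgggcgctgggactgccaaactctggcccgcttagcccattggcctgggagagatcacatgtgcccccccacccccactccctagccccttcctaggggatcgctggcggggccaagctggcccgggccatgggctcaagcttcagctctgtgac
Hoxb8 promoter, chr11:96281655-96281904: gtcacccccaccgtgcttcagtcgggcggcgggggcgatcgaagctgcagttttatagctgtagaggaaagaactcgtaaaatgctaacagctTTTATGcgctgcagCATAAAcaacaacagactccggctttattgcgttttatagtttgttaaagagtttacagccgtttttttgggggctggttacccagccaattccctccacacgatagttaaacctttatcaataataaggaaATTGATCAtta

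The PBX-HOX motif is the site that HOX proteins bind together with PBX cofactors, and Hoxb1 is known to activate itself through such sites. It had 1 match in the Hoxb1 promoter, beginning 162 bases before the start, and 1 on the minus strand in the Hoxb8 promoter, beginning 11 bases before the start. The Hoxb4 promoter had 0. Of 32817 promoters of this length, 7.69% held the motif. The CDX motif had 2 matches in the Hoxb8 promoter, against 0 in Hoxb4 and 0 in Hoxb1, and 10.8% of promoters held it. CDX proteins are activators of the trunk Hox genes. The TATA motif TATAAA had 2 matches, both on the minus strand, in Hoxb8, where they overlapped neither other motif, and 0 in Hoxb4 and Hoxb1, and was found in 12.4% of promoters. CpG dinucleotides numbered 14 in Hoxb4, 12 in Hoxb8 and 7 in Hoxb1, against a median of 6 over all promoters. A match is a run of letters and not a measured binding site.

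The stretch before Hoxb4 also holds Mir10a, whose hairpin lies at 96317165 to 96317274 on the plus strand. Its mature sequence is printed because the Hoxb4 peaks reach it, with the seed (bases 2 to 8) in capitals.
mmu-miR-10a-5p, chr11:96317186-96317208: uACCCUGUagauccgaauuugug

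Over the whole cluster, H3K4me2 peaks covered less sequence in KO than in WT at both stages. In EB, 5.51 and 3.57 kb were covered in KO and 16.6 and 24.2 kb in WT, with means of 4.54 ± 1.38 and 20.4 ± 5.39 kb (SD, n = 2 each). In ES cells the values were 20.6 and 13.9 kb in KO and 32.5 and 24.7 kb in WT, with means of 17.3 ± 4.73 and 28.6 ± 5.52 kb. The KO and WT libraries did not overlap at either stage. The share of other regions of the genome whose libraries separate in this way was not counted.

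The log2 ratio of covered sequence, KO over WT, was -2.17 in EB and -0.73 in ES cells. Over all peaks of the lists it was -0.49 in EB and 0.35 in ES cells. In ES cells the cluster thus had less covered sequence in KO while the whole KO lists were longer, with 29138 and 32874 peaks against 24600 and 22615 in WT. In the higher-scoring 50% of each list, the ES ratio was 0.28, so its direction turned, and no H3K4me2 peak over the cluster was left in KO EB. ES KO replicate 2 and EB WT replicate 2 belong to another library series than the other H3K4me libraries. Without them the ratios were -0.47 in ES cells and -1.87 in EB.

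H3K4me1 covered less of the cluster than H3K4me2 in most libraries. No H3K4me1 peak lay over the cluster in either KO EB library, against 4.17 and 6.17 kb in the WT EB libraries. The KO EB lists were the shortest, with 8943 and 5990 peaks in all against 14082 and 13260 in WT. With all H3K4me1 lists cut to their highest-scoring 5990 peaks, WT EB had no peak over the cluster either. The part of list length in this difference was not otherwise tested. In ES cells 10.6 and 17.1 kb were covered in KO and 26.0 and 16 kb in WT, with means of 13.8 ± 4.6 and 21.0 ± 7.09 kb (SD, n = 2 each). These ES libraries overlapped, so the log2 ratio of -0.60 is not read as a difference.

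**Figure D1:**
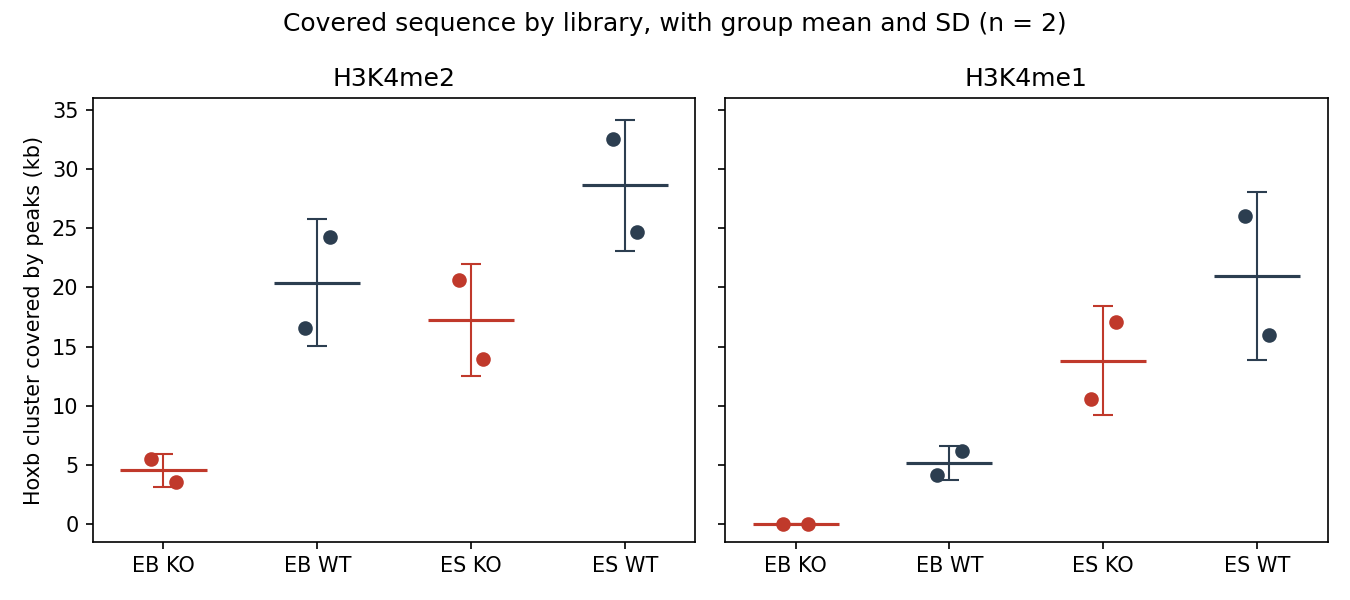
Length of the Hoxb cluster under called peaks in kb (vertical axis) for each library (points), with the group mean (line) and SD (bars, n = 2), for H3K4me2 (left panel) and H3K4me1 (right panel). KO points (red) lie below WT points (dark blue) in each pair except H3K4me1 in ES cells, where 17.1 kb in KO exceeds 16 kb in WT.

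Between stages, the cluster had less covered sequence in EB than in ES cells in every mark and genotype. For H3K4me2 the log2 ratio of EB over ES was -1.93 in KO and -0.49 in WT, beside -1.02 and -0.18 over all covered sequence of the lists. In WT the H3K4me2 ratio turned to 0.11 when all lists were cut to equal length, so its direction depended on list length. For H3K4me1 in WT it was -2.02, from 5.17 ± 1.42 kb in EB and 21.0 ± 7.09 kb in ES cells (SD, n = 2 each), beside -0.24 for all covered sequence.

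The 58 H3K4me2 and H3K4me1 peaks over the cluster, 35 and 23, formed 12 sites when overlapping peaks were joined. H3K4me2 gave 2 and 1 peaks in the KO EB libraries, against 4 and 6 in WT EB. The KO ES libraries had 4 and 4 such peaks, against 8 and 6 in WT. H3K4me1 gave 0 and 0 in KO EB, against 2 and 1 in WT EB. The KO ES libraries had 3 and 4 of these, against 8 and 5 in WT. No site had a peak in all 16 lists, and none had an H3K4me1 peak in KO EB.

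**Figure D2:**
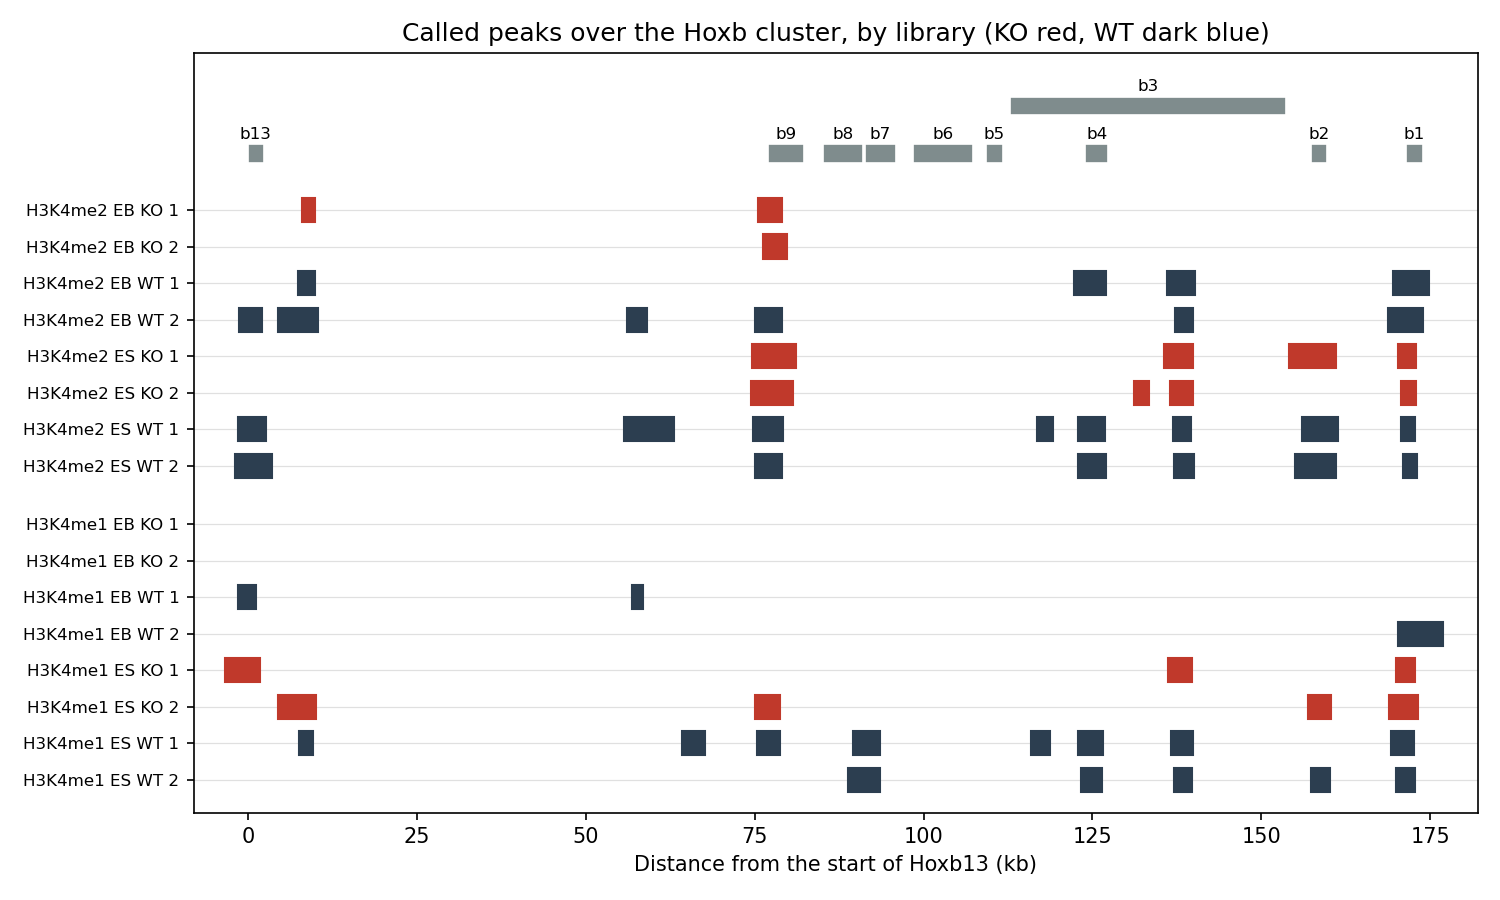
Called peaks over the Hoxb cluster in the 16 libraries (rows, KO above WT and EB above ES within each mark), drawn to scale against the distance from the start of Hoxb13 in kb, with gene spans in grey at the top (b13 is Hoxb13 and so on). KO EB rows have peaks at 2 sites for H3K4me2, one beside Hoxb13 and one at Hoxb9, and no peak for H3K4me1.

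The Hoxb1 site had the most lists, 6 for H3K4me2 and 5 for H3K4me1. Hoxb1 gives hindbrain segments their identity and is among the first Hox genes that retinoic acid induces. H3K4me2 covered its windows by 0 and 0 kb in KO EB, against 5.32 and 5.05 kb in WT EB. In ES cells it covered 2.70 and 2.25 kb in KO and 2.10 and 2.01 kb in WT. Hoxb1 was thus marked in both genotypes of ES cells but only in WT libraries among the EB libraries.

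The Hoxb1 peaks differed in width between the stages. In WT, H3K4me2 peaks were 5.32 and 5.19 kb wide in EB and 2.10 and 2.01 kb wide in ES cells. How often peaks at other genes separate by stage in this way was not counted. The single H3K4me1 peak of WT EB, in replicate 2, was 6.61 kb wide, against 3.41 and 2.75 kb in WT ES cells. The wide EB peaks scored low in their lists. Ranked by score within a list, with a higher percentile for a stronger peak, those for H3K4me2 in WT EB stood at the 8.03 and 2.1 percentiles of 14334 and 19246 peaks. In ES cells the H3K4me2 peaks at Hoxb1 stood at 73.5 and 80.3 in KO and at 64.3 and 38.9 in WT. The H3K4me1 peaks stood at 96.3 and 94.3 in KO and at 94.8 and 92.6 in WT, the strongest H3K4me1 peaks of the cluster in each of these libraries. Scores are the authors' own values, and percentiles of lists of different length are not read as a change. The 250 bases of the Hoxb1 promoter printed above lay wholly under a peak in 6 of 8 H3K4me2 lists and 5 of 8 H3K4me1 lists.

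Hoxb2, a hindbrain gene known as a target of Hoxb1, lay under a broad H3K4me2 site (96348416 to 96355650). In ES cells that peak was 7.01 kb wide in KO replicate 1, was not called in KO replicate 2, and was 5.31 and 6.07 kb wide in WT. No EB list of either mark had it. H3K4me1 was called there in KO replicate 2 and WT replicate 2 of ES cells, at the 1.4 and 3.31 percentiles, close to the lowest score kept.

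The same H3K4me2 peaks marked Hoxb3, an anterior member expressed in the hindbrain, since they reach the windows of its far end. Of these, WT replicate 1 entered the window by 88 bp and WT replicate 2 by 1158 bp, against 2015 bp in KO replicate 1. The H3K4me1 peaks nearest to that end stayed outside, at 3223 bp in KO replicate 2 and 3685 bp in WT replicate 2. In WT replicate 1 the nearest lay inside the span, 3190 bp from the opposite end. Inside the Hoxb3 span, and outside its windows, lay a site at 96329927 to 96334533 with 6 H3K4me2 and 3 H3K4me1 lists. It had H3K4me2 in 0 of 2 KO and 2 of 2 WT libraries of EB, and in all 4 ES libraries. It is the second most often marked place of the cluster, together with Hoxb9, although the gene-end rule does not see it. With the whole gene span counted, a setting chosen after seeing the data, Hoxb3 joined Hoxb1 as WT-only for H3K4me2 in EB.

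Hoxb4, known for expanding blood stem cells when overexpressed, was marked in WT libraries alone. H3K4me2 covered 0 and 0 kb of its windows in KO ES cells, against 3.99 and 4.17 kb in WT ES cells. H3K4me1 covered 0 and 0 kb in KO and 3.66 and 3.10 kb in WT ES cells. In EB only WT replicate 1 had it, with 4.72 kb of H3K4me2. All KO libraries of both marks were without a peak at Hoxb4, and the nearest was an H3K4me2 peak 3874 bp away in KO ES replicate 2. These peaks stood at the 58.5 and 36.6 percentiles for H3K4me2 and 22 and 38.1 for H3K4me1 in WT ES cells, so they were not among the strong ones. They covered the whole Mir10a hairpin in 3 H3K4me2 lists and 1 H3K4me1 list, all WT.

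The middle of the cluster was nearly free of peaks. Hoxb5, which acts in the lung and in the gut's nervous system, and Hoxb6, a trunk and limb mesoderm gene, were marked in 0 of 16 lists. No H3K4me2 peak lay between Hoxb8 and Hoxb5 in any of 8 lists. Absence of a called peak is not read as absence of the mark. For Hoxb7, active in the ureteric bud of the kidney, and Hoxb8, active in nerve and blood cells, the only peak was H3K4me1 across the 278 bp between them. It was absent from KO ES cells and from all EB lists, and was 3.98 and 4.69 kb wide in the WT ES libraries. It began downstream of the Hoxb8 promoter printed above, none of which lay under a peak of any list.

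Hoxb9, which acts in thoracic rib identity, was the only member with an H3K4me2 peak in KO EB. Its windows were covered by 3.51 and 3.31 kb in KO EB, against 0 and 3.96 kb in WT EB. In ES cells they were covered by 6.33 and 5.91 kb in KO and 4.52 and 4.09 kb in WT. This was the strongest H3K4me2 peak of the cluster in WT ES cells, at the 88.2 and 93.3 percentiles, with 52.9 and 62.9 in KO. KO ES peaks of H3K4me2 were thus wider at Hoxb9, as they were at Hoxb1, while stretches elsewhere in the cluster were uncovered. The share of all genes whose KO and WT libraries separate in this way was not counted. H3K4me1 was called at Hoxb9 in 1 of 2 libraries of each ES genotype and in no EB library.

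Hoxb13, which acts in the tail and prostate, differed by mark. In ES cells its windows had 0 and 0 kb of H3K4me2 in KO, against 4.19 and 5.47 kb in WT. For H3K4me1 the windows had 4.24 and 0.387 kb in KO and 0 and 0 kb in WT, but the KO peaks lay at different places. The KO replicate 2 peak began 2114 bp from the gene and entered the window by only 387 bp. WT replicate 1 had an H3K4me1 peak within the span of that KO peak, 5232 bp from Hoxb13 and so outside the window. Base by base, 0 kb of the cluster in ES cells were under H3K4me1 in both KO and neither WT library. In EB, WT replicate 2 had H3K4me2 and WT replicate 1 had H3K4me1, and KO had neither. Beside Hoxb13, a site over the lncRNA genes Gm30134 and Gm11538 (96198689 to 96204643) had H3K4me2 in EB alone, in 1 of 2 KO and 2 of 2 WT libraries, and in 0 of 4 ES libraries.

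**Figure D3:**
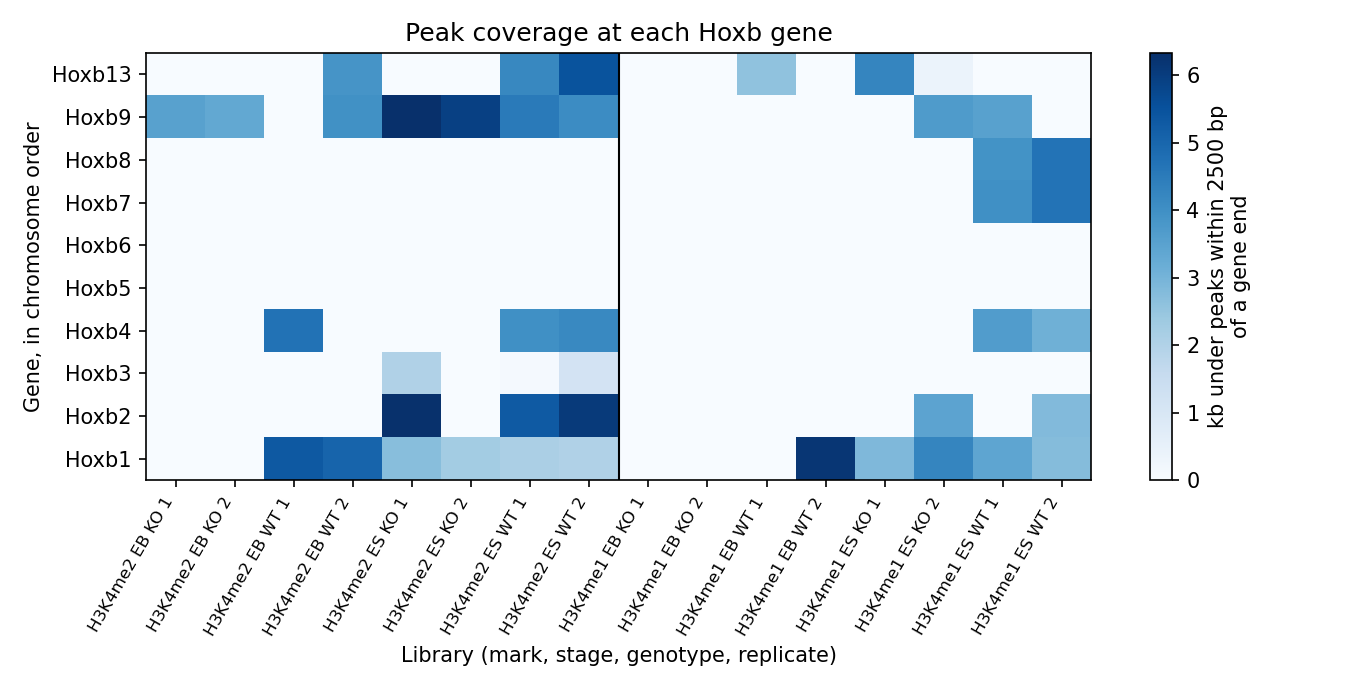
Kilobases under peaks within 2500 bp of either end of each Hoxb gene (rows, in chromosome order) in each of the 16 libraries (columns, H3K4me2 left of the line and H3K4me1 right, EB before ES and KO before WT). Hoxb5 and Hoxb6 are empty in all columns, Hoxb4 is empty in all KO columns, and Hoxb9 is the only row with H3K4me2 in KO EB.

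Counted by gene, the calls asked for a peak in both libraries of one group and neither of the other, and were set beside all protein-coding genes that could meet the same call. For H3K4me2 in ES cells, 2 of the 6 members marked in both WT libraries were WT-only, Hoxb13 and Hoxb4, where 2.37% of 11210 genes were. KO-only were 0 of the 4 unmarked in WT, where 4.68% of genes were. In EB 1 of 1 was WT-only, Hoxb1 (3.33% of genes), and 0 of 6 KO-only (4.82%). Without EB WT replicate 2, of the other series, Hoxb4 was WT-only too and Hoxb9 was KO-only. Without EB WT replicate 1, Hoxb13 joined Hoxb1 as WT-only. Without ES KO replicate 1, Hoxb3 and Hoxb2 joined the WT-only members of ES cells. The share of all genes that met these calls with 1 library left out was not counted.

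For H3K4me1 in ES cells, 3 of the 4 members marked in both WT libraries were WT-only, Hoxb8, Hoxb7 and Hoxb4, where 12.8% of 3051 genes were. Hoxb8 and Hoxb7 share their peak, so these are 2 sites. Hoxb13 was KO-only, 1 of 4 (1.86% of genes), and this ended when 500 bp had to lie in the windows. Its KO peaks did not overlap each other. In EB no member was marked in both WT libraries, so none could be WT-only (42.4% of genes), and 0 of 8 were KO-only (0.765%). In the higher-scoring 50% of each list no member was KO-only or WT-only at either stage for either mark.

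Between stages, the calls were set beside all genes in the same way. For H3K4me2, the ES-only members were Hoxb1 in KO, 1 of 2 (11.9% of genes), and Hoxb3 and Hoxb2 in WT, 2 of 6 (8.39%). For H3K4me1 they were Hoxb13 and Hoxb1 in KO, 2 of 2 (65.5%), and Hoxb8, Hoxb7 and Hoxb4 in WT, 3 of 4 (47.9%). EB-only members numbered 0 of 6 in KO (10.3% of genes) and 0 of 4 in WT (8.06%) for H3K4me2, and 0 of 6 (2.17%) and 0 of 4 (5.23%) for H3K4me1. The KO and stage comparisons share libraries, and each is given for its own groups.

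By stretch, all H3K4me2 of KO EB lay between Hoxb13 and Hoxb9, with 5.51 and 3.57 kb there, against 2.42 and 16.4 kb in WT EB. From Hoxb4 to Hoxb1, the end that retinoic acid opens first, KO EB had 0 and 0 kb, against 14.2 and 7.78 kb in WT EB. In ES cells the Hoxb4 to Hoxb1 stretch had 14.0 and 7.75 kb in KO and 16.4 and 15.2 kb in WT. Base by base, 7.67 kb of the cluster in EB were under H3K4me2 in both WT and neither KO library, and 0.056 kb the reverse. In ES cells these lengths were 8.18 and 2.15 kb, and 8.30 kb lay under a peak in all 4 libraries.

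**Figure D4:**
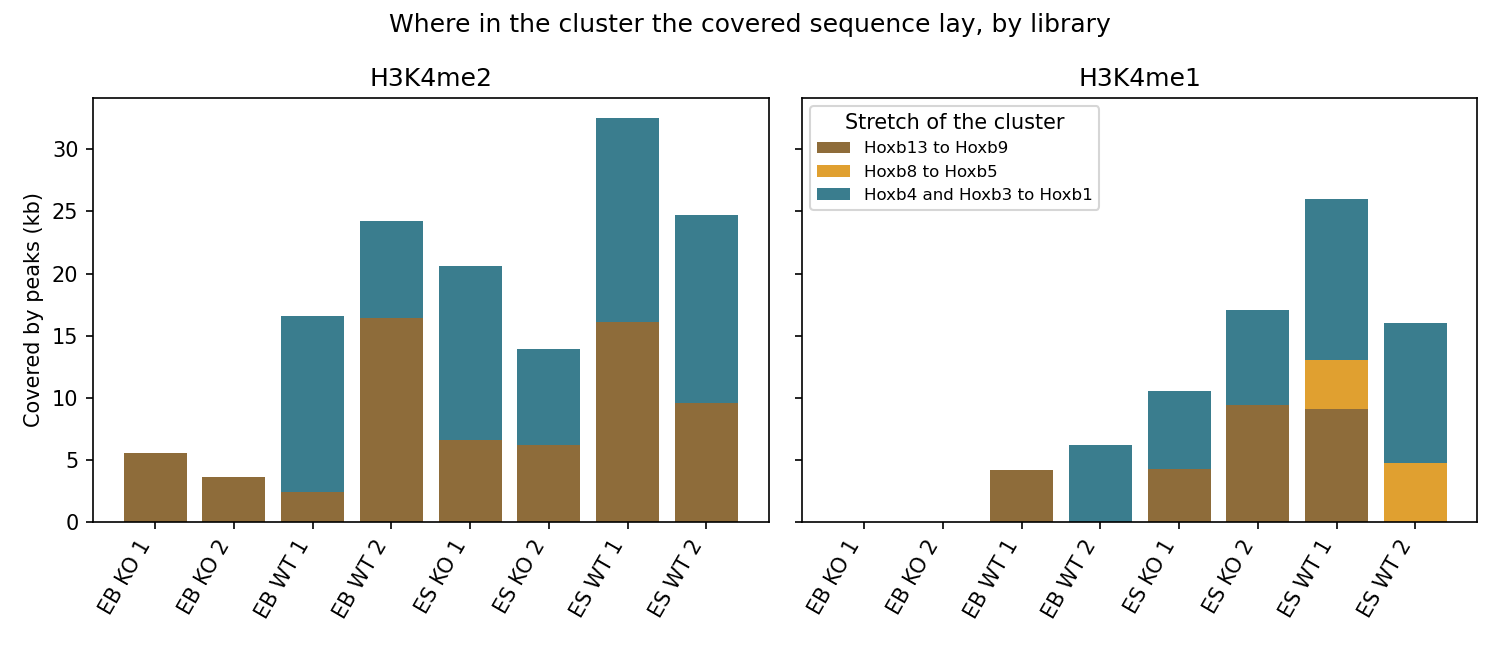
Kilobases under peaks in 3 stretches of the cluster (stacked colours) for each library, H3K4me2 in the left panel and H3K4me1 in the right, with EB before ES and KO before WT. The H3K4me2 bars of KO EB hold only the Hoxb13 to Hoxb9 stretch, and the Hoxb8 to Hoxb5 stretch appears only in the H3K4me1 bars of WT ES cells.

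Both marks lay together mostly in ES cells. Sequence under both marks in libraries of the same number made up 28.7% and 42.7% of the H3K4me2 sequence in KO ES cells and 42.0% and 41.5% in WT ES cells. In EB it was 0% and 0% in KO, where no H3K4me1 peak was called, and 0% and 15.3% in WT, all of it at Hoxb1. The shared numbers are labels and do not tie the libraries to the same cells.

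The PRDM16 antibody gave 3 peaks over the cluster, each in a different KO library, and 0 in the 4 WT lists. In ES KO replicate 1 the peak was 487 bp wide and lay 302 bp from Hoxb1 (96364958 to 96365444). In ES KO replicate 2 it was 411 bp wide and lay inside the Hoxb3 span (96344699 to 96345109). In EB KO replicate 1 it was 843 bp wide and lay inside Hoxb8 (96282831 to 96283673). These are peaks of the antibody in cells labelled as lacking its target, and the KO label was not checked, so they are not read as PRDM16 binding. The peak at Hoxb1 lay under the H3K4me site of 11 lists. The ES KO lists held 586 and 499 PRDM16 peaks, against 331 and 191 in WT, and the EB KO lists 173 and 187, against 146 and 258 in WT.

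Genes beside the cluster were mixed. Skap1, on the Hoxb1 side, had H3K4me2 in all 8 lists. Ttll6 and Calcoco2, the nearest genes on the Hoxb13 side, had it in 2 of 2 KO and 2 of 2 WT libraries of EB and in no ES library. Atp5g1, farther out, had it in all 8 lists. Beyond it, Gip had it in 0 of 2 KO and 2 of 2 WT libraries of EB, as Hoxb1 did, and in all 4 ES libraries. Snf8 had it in 1 of 2 KO and 2 of 2 WT libraries of EB, and Ube2z in 2 of 2 KO and 1 of 2 WT. Igf2bp1 had it in no EB library, and in 1 of 2 KO and 2 of 2 WT libraries of ES cells. In the other Hox clusters the mean H3K4me2 cover in EB was 10.3 kb in KO and 11.7 kb in WT for Hoxc, and 5.41 kb in KO and 16.8 kb in WT for Hoxd, while Hoxa had none. The Hoxc libraries overlapped in EB, with 9.10 and 11.6 kb in KO and 1.72 and 21.8 kb in WT. The Hoxd libraries did not, with 4.76 and 6.05 kb in KO and 9.63 and 24.1 kb in WT. In ES cells the mean was 29.3 kb in KO and 30.9 kb in WT for Hoxc, 19.4 kb in KO and 29.8 kb in WT for Hoxd, and 0.348 kb in KO and 5.06 kb in WT for Hoxa. The ES libraries overlapped for Hoxc. They did not for Hoxd (16 and 22.8 kb in KO, 28.4 and 31.1 kb in WT) or Hoxa (0 and 0.697 kb in KO, 5.04 and 5.07 kb in WT). For H3K4me1 in EB, Hoxc had 0 and 0 kb in KO and 2.97 and 1.57 kb in WT. Hoxd had 5.26 and 4.99 kb in KO and 7.33 and 2.5 kb in WT, and Hoxa had none. Whether the Hoxb difference is unlike these was not tested.

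Partners and inducers of Hox proteins were read from lists of 9 and 14 genes. Among the cofactors, PBX, MEIS and PKNOX proteins that bind DNA with HOX proteins, Pknox2 was KO-only for H3K4me2 in EB, 1 of 5 unmarked in WT (4.82% of all genes), and no other was KO-only or WT-only. Between stages, Meis1 and Meis2 were ES-only for H3K4me2 in WT (8.39% of all genes). Pknox2 was EB-only for H3K4me2 in KO, 1 of 2 (10.3%), and Meis3 was EB-only for H3K4me1 in WT, 1 of 6 (5.23%). Among inducers and retinoic acid genes, Cyp26b1, which breaks down retinoic acid, was WT-only for H3K4me2 in ES cells, 1 of 5 (2.37% of all genes). Cdx1, an activator of trunk Hox genes, was WT-only for H3K4me2 in EB, 1 of 5 (3.33%). Cyp26c1, of the same enzyme family as Cyp26b1, was KO-only there, 1 of 8 (4.82%), and EB-only in KO, 1 of 9 (10.3%). For H3K4me1 in EB, Cyp26c1 and the WNT ligand gene Wnt3a were WT-only, 2 of 3, where 42.4% of all genes were. For H3K4me1 the ES-only genes were Cyp26a1, Cyp26c1 and the TGF-beta family gene Gdf11 in KO, 3 of 6 (65.5% of all genes), and Cyp26a1 and Gdf11 in WT, 2 of 4 (47.9%).

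Over the 16 lists, the sum of covered sequence in the windows of the 10 genes ran from 0 to 17.3 kb in KO and from 2.58 to 23.0 kb in WT. Sequence shared by the windows of neighbouring members counts for each of them, so this sum can exceed the covered length of the cluster. The genes outside the Hox clusters whose window cover was most like this sum were Zfp93 (Pearson r = 0.92), Birc3 (0.89), Rgs22 (0.87), Twistnb (0.85) and 1700029H14Rik (0.85), of 15895 compared. The 16 points share mark, stage and list length, so r is a description. The first 4 of these had H3K4me2 in both KO EB libraries, where Hoxb1 had none.

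Peaks at markers of the labelled cell types went both ways. Of 8 ES cell markers, 1 to 5 had H3K4me2 in EB lists and 3 to 5 in ES lists. Their summed cover was lower in every EB list, at 3.08 to 14.0 kb, than in any ES list, at 16.3 to 20.2 kb. Dppa3 and Dppa4 were ES-only for H3K4me2 in KO, 2 of 4 (11.9% of all genes), and Dppa4 in WT, 1 of 3 (8.39%). For H3K4me1 the ES-only markers were Zfp42 and Dppa4 in KO, 2 of 2 (65.5%), and Zfp42 and Dppa3 in WT, 2 of 2 (47.9%). Going the other way, Pou5f1 and Nanog were EB-only for H3K4me1 in KO, 2 of 5 (2.17%), and Nanog in WT, 1 of 5 (5.23%). Pou5f1, Nanog and Sox2 had no H3K4me2 peak in any ES list, and Pou5f1 was EB-only for it in KO, 1 of 3 (10.3%). Of 12 germ layer markers, 3 to 6 had H3K4me2 in EB and 5 to 8 in ES cells, and Gata6, Pax6, Sox1 and Tbx5 had none in either. Of the 12, Eomes and Foxa2 were WT-only for H3K4me2 in ES cells, 2 of 8 (2.37% of all genes), and Nkx2-5 in EB, 1 of 3 (3.33%). For H3K4me1 in ES cells, Gata4 was WT-only, 1 of 5 (12.8%), and Sox17 was KO-only, 1 of 6 (1.86%). Of the ES cell markers, Dppa4 was KO-only for H3K4me1 in ES cells, 1 of 5 (1.86%), and Pou5f1 in EB, 1 of 5 (0.765%). Between stages, Gata4 and Foxa2 were ES-only for H3K4me2 in WT, 2 of 8 (8.39%). For H3K4me1, Gata4, Foxa2, Sox1 and Nkx2-5 were ES-only in WT, 4 of 5 (47.9%), and Foxa2 in KO, 1 of 3 (65.5%). Kdr was EB-only for H3K4me1 in WT, 1 of 6 (5.23%), and in KO, 1 of 5 (2.17%). Of 8 fibroblast or feeder markers, 5 to 6 had H3K4me2 in EB and 5 in each ES list, with Col3a1 and Postn in none. Pdgfrb was EB-only for H3K4me2 in WT, 1 of 3 (8.06% of all genes). For H3K4me1 in WT, Col1a2 was EB-only, 1 of 5 (5.23%), and Prrx1 was ES-only, 1 of 3 (47.9%). The summed H3K4me2 cover of the 8 was 16.5 to 25.2 kb in EB lists. In ES lists it was 13.1 to 14.7 kb, lower in each than in any EB list. The ES cell marker sum was thus lower in EB, as the Hoxb cover was within each genotype, and the fibroblast or feeder sum was higher. The germ layer sums for H3K4me2 overlapped, at 7.28 to 25.9 kb in EB and 16.2 to 32.2 kb in ES cells. For H3K4me1 the sums of each marker list overlapped between stages. The part of these markers in the Hoxb values was not tested. Read totals were not analysed here, so depth is unknown.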

How the data were processed

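The 24 libraries of 12 groups were read from 1 peak list each. Per the submitters' processing notes, the build was mm10, and HOMER 4.10, MACS2, deepTools, SAMtools 1.5, Bowtie2 and bedtools were used, their order and roles unstated. Each peak's score is the authors' deposited value, at least 50, with no stated unit, and it only ranked or filtered peaks within a list. Peaks off chromosomes 1 to 19, X and Y, 1 mitochondrial peak per list, were left out. Control libraries and duplicate handling: not given in the sources used here.

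Genes were matched by symbol to RefSeq GRCm38.p6, with starts made 1-based, and a peak marked a gene from 1 bp of overlap. Overlap counting was tested on simulated data. The members and lists were chosen with earlier results of these data known. Named genes were the members, list genes with a call, and the 5 most alike; others were chosen after their values were seen. Python 3.11.15, numpy 2.4.6 and pandas 2.3.3 were used. Alternatives are given in the closing section. Some results of the cofactor list are not reported here.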

Additional observations from a re-analysis of the deposited data

How the results depend on the processing

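No paired analysis was possible because no result comes from a test. Under settings other than leaving out a library, 30 of the 48 values for member counts above 0 moved by over 1.5 times and 18 did not, and the 8 counts reported as 0 stayed at 0. For KO against WT, the WT-only count for H3K4me2 was 1 (ES) and 3 (EB) with windows of 10000 bp, 0 and 0 in the higher-scoring 50% of peaks, 0 and 0 with equal list lengths, and 2 in EB with the whole gene span. With windows of 10000 bp, Hoxb4 was not WT-only in ES cells for either mark. For H3K4me1 in ES cells the WT-only count was 2 with 10000 bp (Hoxb7 and Hoxb6). It was 0 there in the higher-scoring 50% and 0 with equal lengths. The KO-only count there was 0 with windows of 1000 or 10000 bp, in the higher-scoring 50%, with equal lengths and with 500 bp of overlap. The ES-only count for H3K4me2 in WT was 1 with 1000 bp, 500 bp of overlap or the whole span, and 0 with 10000 bp, the higher-scoring 50% or equal lengths. In KO it was 2 with 10000 bp, the higher-scoring 50% or the whole span. For H3K4me1 in WT it was 7 with 10000 bp and 1 in the higher-scoring 50% or with equal lengths, and in KO 1 with 1000 bp, 500 bp of overlap, the higher-scoring 50% or equal lengths. With each library left out, WT-only counts ranged from 2 to 4 (H3K4me2, ES), 1 to 2 (H3K4me2, EB), 3 to 3 (H3K4me1, ES) and 0 to 1 (H3K4me1, EB), KO-only counts from 0 to 1 (H3K4me2, EB), ES-only counts from 2 to 4 and 3 to 4 in WT and from 1 to 3 and 2 to 4 in KO (H3K4me2 and H3K4me1), and EB-only counts from 0 to 1 (H3K4me1, WT).

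The covered sequence kept its direction in all 24 values with a library left out: -1.04 to -0.47 for H3K4me2 KO over WT in ES cells, -2.52 to -1.87 in EB, -0.99 to -0.21 for H3K4me1 in ES cells, and for EB over ES -0.79 to -0.24 (H3K4me2, WT), -2.28 to -1.62 (H3K4me2, KO) and -2.33 to -1.63 (H3K4me1, WT). Values that reversed were 0.28 for H3K4me2 KO over WT in ES cells (higher-scoring 50%) and 0.11 for H3K4me2 EB over ES in WT (equal lengths). Others that moved were -1.72 (equal lengths) and -1.66 (relative to all covered sequence) for H3K4me2 KO over WT in EB, -2.13 for H3K4me2 and -2.59 for H3K4me1 EB over ES in WT (higher-scoring 50%), and -0.97 (equal lengths) and -0.91 (relative) for H3K4me2 EB over ES in KO. The cause was not tested. Equal lengths means the highest-scoring 13818 peaks for H3K4me2 and 5990 for H3K4me1, which for H3K4me1 in EB left no peak over the cluster. Depth is unknown, so a missing peak cannot be told from a shallow library.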
